A study of Mus musculus with 12 samples.

Results

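The genes described here are the nuclear genes of the mitochondrial respiratory chain in CD8+ T cells expanded with or without dichloroacetate (DCA). They were taken by symbol from the authors' deposited comparison table: symbols that start with Nduf, Uqcr, Atp5 or Cox4 to Cox8, and Sdha, Sdhb, Sdhc, Sdhd, Cyc1 and Cycs, without pseudogene symbols that end in -ps and a digit. Of the 15067 genes in that table, 103 matched and 2 were dropped as pseudogenes, which left 101 of the 56748 genes in the count table. A further 6 symbols end in -ps with no digit and are kept apart below, so the results concern 95 genes. They comprise 39 subunit genes of complex I, 8 complex I assembly factors of the Ndufaf series, 4 genes of complex II, 10 of complex III with cytochrome c, 17 of complex IV and 17 of complex V. Ndufa4 was counted with complex IV, where its protein is now placed. All 95 genes passed the filter on low counts. Genes that the authors' table leaves out are not members.

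Complexes I and II pass electrons from NADH and succinate to ubiquinone, complex III passes them on to cytochrome c, and complex IV hands them to oxygen. Complexes I, III and IV pump protons across the inner mitochondrial membrane, and complex V, the ATP synthase, uses the proton gradient to make ATP. The subunits fall into catalytic or core ones, which carry the redox centres or active sites, and accessory ones; a few complex IV subunits also have tissue-specific isoforms. Activated T cells build up this machinery as they proliferate. DCA inhibits the kinases that switch off pyruvate dehydrogenase, the enzyme that turns pyruvate into acetyl-CoA for mitochondria.

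Bulk RNA sequencing covered 12 libraries in 4 groups of 3: DCA and untreated cells of experiment 1, and DCA and untreated cells of experiment 2. The starting material was spleen of mice with a transgenic T cell receptor, whose cells met their peptide for 24 hours (250 nM SIINFEKL for OT-1, 1 uM gp100 for pmel-1), were grown for 6 more days in medium with IL-2 and with 5 mM DCA or none, and were sorted for CD8 on day 7. Every mouse gave a DCA and an untreated library, so the 12 libraries came from 6 separate mice. The strain and genotype labels of experiment 1 name OT-1 and C57BL/6-Tg(TcraTcrb)1100Mjb/J, while its sample titles name Pmel-1; for experiment 2 both name pmel-1, whose transgene Tg(TcraTcrb)8Rest/J is on a B6.Cg-Thy1a/Cy background. The transgenic receptor, which gives nearly all CD8 T cells of a mouse the same specificity, was present in DCA and untreated cells alike. Strain, peptide and technical batch coincide with experiment and cannot be told apart.

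The smallest library held 28039700 and the largest 41051100 counts, rounded to 6 digits. The 5 CD8 T cell markers summed to 4325 to 4717 CPM (counts scaled to a common library total) in DCA and 3580 to 4289 CPM in untreated cells of experiment 1. In experiment 2 they summed to 3776 to 3952 CPM in DCA and 4487 to 4998 CPM in untreated cells. By library totals the arms were thus apart in opposite directions. Of the 5 genes, edgeR called 0 in experiment 1 (median log2 fold change 0.09) and 4 in experiment 2, all lower in DCA cells. Cd4 reached at most 0.638 CPM. Genes with a count numbered 18747 to 19322 in DCA and 18382 to 19551 in untreated libraries of experiment 1, and 23635 to 24326 in DCA and 24831 to 26571 in untreated libraries of experiment 2. Markers of B cells (4 genes, of which Ms4a1, Cd79a and Cr2 were too low to test) summed to 27.5 to 38.8 CPM in DCA and 12.8 to 18.2 CPM in untreated cells of experiment 1, and to 33.3 to 38.7 CPM in DCA and 24.0 to 26.9 CPM in untreated cells of experiment 2. Myeloid markers (6 genes, of which Lyz2, Csf1r, Adgre1 and Itgam were too low to test) summed to 10.98 to 30.5 CPM in DCA and 7.91 to 10.9 CPM in untreated cells of experiment 1, and to 16.5 to 19.6 CPM in DCA and 8.01 to 16.9 CPM in untreated cells of experiment 2. The part of such cells, and of the number of genes detected, in the results was not tested. In bulk RNA, fewer cells of a type and less RNA per cell cannot be told apart.

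In DCA cells most genes of complexes II, III and V, and many of complex I, had lower transcript levels than in untreated cells of the same mice. Complex IV was mixed, with 3 rises and 3 falls in the main test, a balance that changed with the fit. The falls were small, their size depended on how the libraries were scaled, and in experiment 1 alone the median of the 95 genes turned positive with library totals and with cyclic loess. With TMM scaling, which sets library sizes after trimming the most extreme genes, and both experiments in 1 model, 44 of the 95 genes fell and 3 rose (edgeR quasi-likelihood test, Benjamini-Hochberg adjusted p under 0.05 over 15688 genes), against 9.80% of all tested genes that fell and 7.01% that rose. The median log2 fold change of the 95 genes, DCA over untreated, was -0.16, and that of all tested genes -0.02. Errors given after a log2 fold change are standard errors. Transcripts of 42 of the 95 genes were lower in the DCA arm of 6 of 6 mice, a pattern shown by 10.8% of all tested genes, and 3 were higher in all 6, as were 8.31% of all tested genes. A term for mouse in the model left 34 calls.

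The size of the fall is relative to the scaling. DCA libraries of experiment 1 had TMM factors of 0.910 to 0.934 against 0.818 to 0.845 in untreated libraries. In experiment 2 the factors were 1.15 to 1.17 in DCA and 1.12 to 1.13 in untreated libraries, so TMM lowered DCA values relative to untreated ones in both. Scaling by library totals alone gave a median of all genes of 0.08, against -0.02 with TMM. It gave 1677 higher and 798 lower calls over all genes, against 1100 and 1538 with TMM, and 6 higher and 19 lower among the 95 genes, against 10.7% and 5.09% of all tested genes. The distance between the medians of the 95 genes and of all genes was -0.14 under both. Cyclic loess, which also takes out trends with expression level, left 8 higher and 14 lower members, against 7.85% and 6.64% of all tested genes, and a member median of -0.04. As a share of all counts, the 95 genes made up 4.42% to 4.64% in DCA cells and 4.37% to 4.63% in untreated cells of experiment 1, which overlap, and 2.64% to 2.72% in DCA cells and 2.86% to 2.99% in untreated cells of experiment 2, which do not. Called in the same direction under TMM, RLE, library totals and cyclic loess were 14 members that fell, against 4.53% of all genes, and 3 that rose, against 5.59%. The 14 were Cyc1, Uqcrc1, Uqcrc2, Uqcrfs1, Cycs, Sdha, Ndufs1, Ndufv1, Ndufs7, Ndufa8, Ndufa9, Atp5a1, Atp5g1 and Cox6a2. Of these, Cox6a2 was near 0 in most DCA libraries and passed the filter on low counts only through untreated libraries. Its call is therefore not counted as support.

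**Figure D1:**
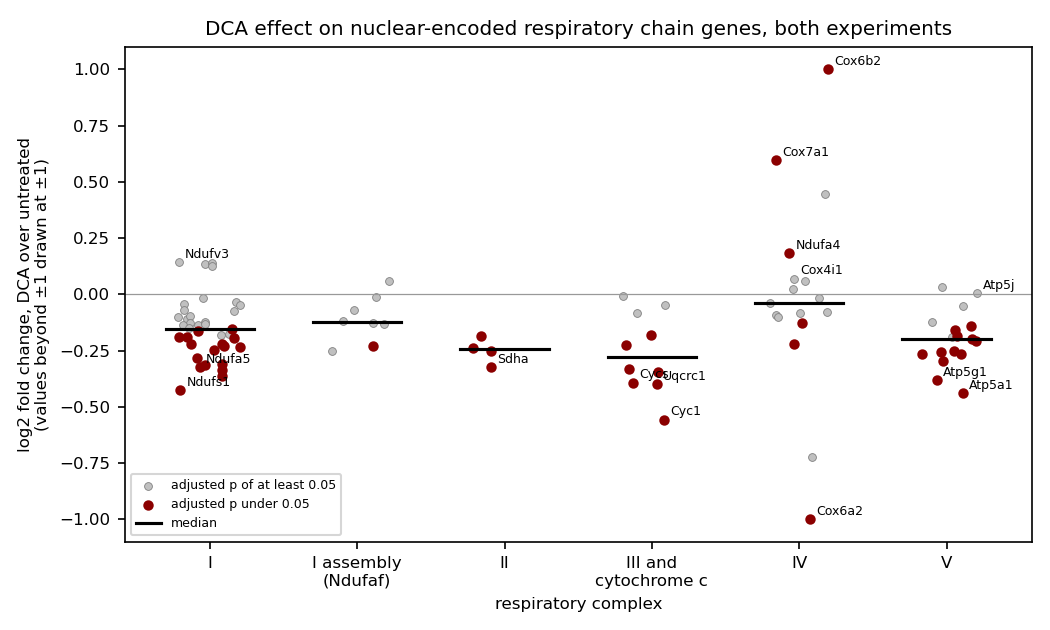
Log2 fold change of each of the 95 genes, DCA over untreated cells of both experiments with TMM scaling, by complex; dark points have an adjusted p under 0.05 and bars are class medians. Class medians ran from -0.28 for complex III with cytochrome c to -0.04 for complex IV, and Cox6b2 (2.13) and Cox6a2 (-3.65) lie beyond the axis and are drawn at its ends.

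**Figure D2:**
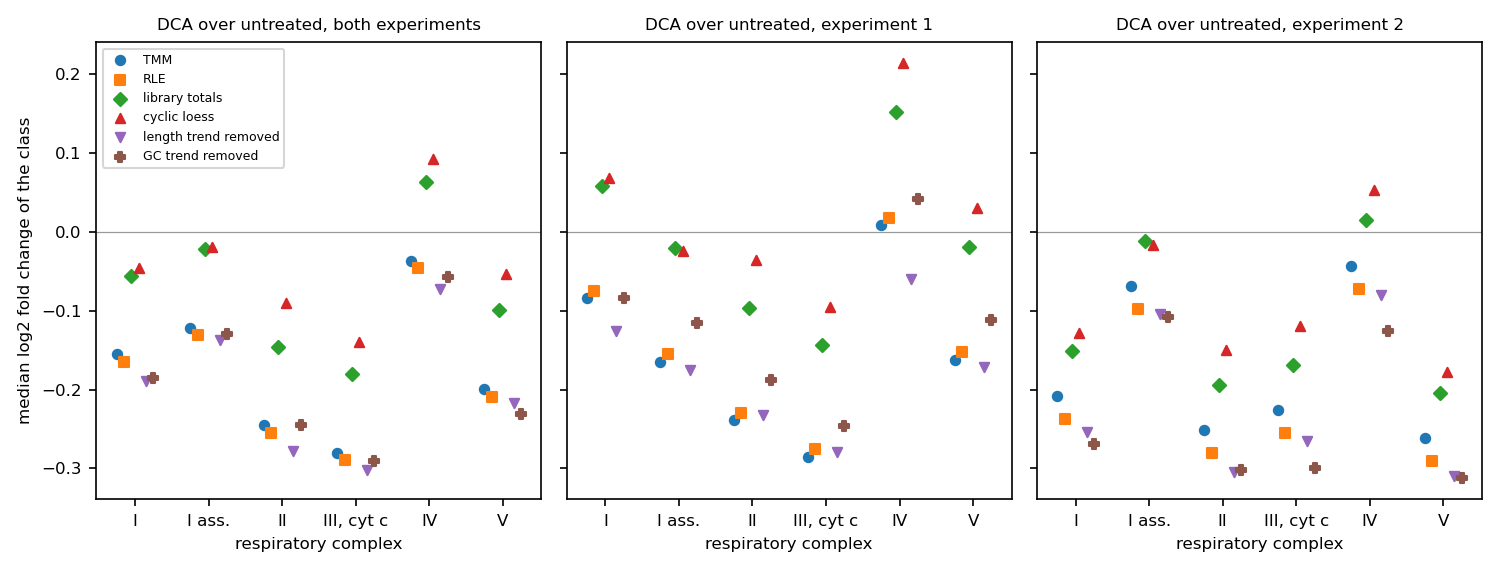
Median log2 fold change, DCA over untreated, of each complex under 6 ways of scaling or detrending, for both experiments, experiment 1 and experiment 2. Complex IV has the highest median in each panel under TMM (-0.04, 0.01 and -0.04), and library totals and cyclic loess shift the classes upward.

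Complex III with cytochrome c had the lowest median of the 6 classes: 7 of 10 genes fell, 0 rose, and the median log2 fold change was -0.28 (-0.18 with library totals and -0.14 with cyclic loess). Its redox and core genes all fell, 4 of 4, with a median of -0.37, against 2 of 5 accessory genes, with a median of -0.08. Cyc1, which encodes the haem protein cytochrome c1 that hands electrons to cytochrome c, had 264, 279 and 326 CPM in DCA cells against 511, 478 and 476 CPM in untreated cells in experiment 1. In experiment 2, Cyc1 had 256, 238 and 248 CPM in DCA cells against 320.2, 341 and 291 CPM in untreated cells. The DCA libraries lay below the untreated ones without overlap in each experiment (log2 fold change -0.56 ± 0.08, adjusted p = 4.11e-04). Cycs, the mobile electron carrier itself, had 1013, 1049 and 1079 CPM in DCA cells against 1341, 1462 and 1316 CPM in untreated cells in experiment 1. In experiment 2, Cycs had 318, 294 and 339.8 CPM in DCA cells against 406, 451 and 396 CPM in untreated cells. It too did not overlap in either experiment, and its fall had the same size in both, -0.39 in experiment 1 and -0.39 in experiment 2 (log2 fold change -0.39 ± 0.05, adjusted p = 2.56e-04 over both).

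Uqcrc1, a core protein of complex III, had 373, 399 and 404 CPM in DCA cells against 596, 531 and 546 CPM in untreated cells in experiment 1. In experiment 2, Uqcrc1 had 397, 391 and 421 CPM in DCA cells against 478, 513 and 484 CPM in untreated cells (over both experiments, log2 fold change -0.40 ± 0.05, adjusted p = 3.73e-04), with no overlap in either experiment. The Rieske iron-sulfur protein gene Uqcrfs1 and the second core protein gene Uqcrc2 fell by 0.35 and 0.33 on the log2 scale (adjusted p = 0.00172 and 8.40e-04). Among the accessory genes, Uqcrq (-0.23) and Uqcr11 (-0.18) fell, Uqcr11 not with a term for mouse (adjusted p = 0.0548). Uqcr10 (-0.08), Uqcrh (-0.05) and Uqcrb (-0.01) did not pass, with adjusted p of 0.351 to 0.947, and their values turned positive under cyclic loess.

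Complex II, which joins the citric acid cycle to the chain, fell in 4 of 4 genes under TMM, with a median of -0.25; with library totals 2 of the 4 were called, and with cyclic loess 1. Sdha, the flavoprotein that oxidises succinate, had 99.2, 93.2 and 107 CPM in DCA cells against 124, 122 and 119 CPM in untreated cells in experiment 1. In experiment 2, Sdha had 173, 181 and 173 CPM in DCA cells against 223, 246 and 209 CPM in untreated cells. DCA and untreated values were apart in each experiment (log2 fold change -0.32 ± 0.06, adjusted p = 0.00165), and Sdha was the gene of complex II called under every one of the 4 scalings. Sdhb, the iron-sulfur subunit, had 1319.8, 1308 and 1414 CPM in DCA cells against 1552, 1644 and 1549 CPM in untreated cells in experiment 1. In experiment 2, Sdhb had 421, 399.9 and 436 CPM in DCA cells against 501, 523 and 495 CPM in untreated cells (over both experiments, log2 fold change -0.25 ± 0.04, adjusted p = 0.00110). Its groups did not overlap either. The membrane anchors Sdhd (-0.24, adjusted p = 0.00799) and Sdhc (-0.19, adjusted p = 0.0482) also fell, and Sdhc lost its call with the mouse term (adjusted p = 0.0699).

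In complex I, 17 of 39 subunit genes fell and 0 rose, with a median of -0.16 (-0.06 with library totals and -0.05 with cyclic loess). The nuclear core subunits, which hold the flavin and the iron-sulfur clusters, fell in 6 of 7 cases, with a median of -0.20, and the accessory subunits in 11 of 30, with a median of -0.14. In experiment 1 the core genes fell in 5 of 7 cases (median -0.27) and the accessory genes in 4 of 30 (13.3%, median -0.08). The accessory share was near the 11% of all tested genes that fell in experiment 1. The medians were close in experiment 2, where 2 of 7 core genes (-0.22) and 6 of 30 accessory genes (-0.21) fell. Of all tested genes, 2.20% fell in experiment 2. Ndufs1, the largest core subunit, which carries iron-sulfur clusters, had 60.3, 65.4 and 61.6 CPM in DCA cells against 85.2, 87.3 and 83.8 CPM in untreated cells in experiment 1. In experiment 2, Ndufs1 had 72.2, 77.3 and 76.8 CPM in DCA cells against 93.0, 104 and 103 CPM in untreated cells. Every DCA library was below every untreated library of its experiment (log2 fold change -0.43 ± 0.06, adjusted p = 3.32e-04). Ndufv1, which binds NADH and the flavin, had 127, 139 and 152 CPM in DCA cells against 211, 200.2 and 176 CPM in untreated cells in experiment 1. In experiment 2, Ndufv1 had 185, 187 and 191 CPM in DCA cells against 222, 225 and 218 CPM in untreated cells. Its groups were apart in both experiments (log2 fold change -0.37 ± 0.07, adjusted p = 0.00206), and the fall was -0.49 in experiment 1 and -0.24 in experiment 2. Of the other core genes, Ndufs7 fell by 0.34, and Ndufs8 and Ndufv2 by 0.16 each. Ndufs8 and Ndufv2 lost the call with the mouse term. That term left falls in 4 of 7 core and 10 of 30 accessory genes. Under all 4 scalings 3 core and 2 accessory genes were called lower.

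Among accessory subunits of complex I the largest falls were those of Ndufa5 (-0.32), Ndufa8 (-0.31) and Ndufa9 (-0.31), and Ndufa5 was not called under cyclic loess (adjusted p = 0.0883). Ndufv3, a small subunit of the NADH-binding arm, had 592, 549 and 600.2 CPM in DCA cells against 432, 465 and 532 CPM in untreated cells in experiment 1. In experiment 2, Ndufv3 had 319.8, 342 and 335 CPM in DCA cells against 296, 321 and 378 CPM in untreated cells. It was called higher in experiment 1 alone (log2 fold change 0.29 ± 0.09, adjusted p = 0.0460; experiment 2, 0.00 ± 0.09, adjusted p = 0.993), and the difference between the experiments did not pass (adjusted p = 0.343). The copies Ndufb4c and Ndufs6b, which can share reads with their parent genes, had 14 to 101 counts per library and no call.

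The Ndufaf assembly factors, which help build complex I and are not part of the finished enzyme, gave 1 fall in 8 genes (12.5%), near the 9.80% of all tested genes, and a median of -0.12. The gene that fell was Ndufaf1, which works on the early membrane arm, with 93.8, 99.6 and 99.0 CPM in DCA cells against 115, 114 and 112 CPM in untreated cells in experiment 1. In experiment 2, Ndufaf1 had 42.9, 40.8 and 47.6 CPM in DCA cells against 47.7, 53.5 and 53.6 CPM in untreated cells (over both experiments, log2 fold change -0.23 ± 0.06, adjusted p = 0.0169). Its DCA values were below the untreated values in 6 of 6 mice, and its call was lost under library totals (adjusted p = 0.154) and cyclic loess (adjusted p = 0.134). Ndufaf4 was called lower in experiment 1 (log2 fold change -0.43 ± 0.14, adjusted p = 0.0413; experiment 2, 0.21, adjusted p = 0.473), as was Ndufaf6 (-0.39, adjusted p = 0.0250; experiment 2, -0.11, adjusted p = 0.676). Ndufaf4 lost the call with the mouse term (adjusted p = 0.0721), and with each of 12 libraries left out Ndufaf4 kept it in 2 fits and Ndufaf6 in 3. The differences between experiments did not pass for either (adjusted p = 0.145 and 0.452).

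Complex V fell in 12 of 17 genes and rose in 0, with a median of -0.20 (-0.10 with library totals and -0.05 with cyclic loess). Atp5a1, the alpha subunit of the catalytic F1 head, had 574, 609.9 and 641 CPM in DCA cells against 879, 863 and 817 CPM in untreated cells in experiment 1. In experiment 2, Atp5a1 had 958, 941 and 960.4 CPM in DCA cells against 1271, 1288 and 1197 CPM in untreated cells. The DCA and untreated values were far apart compared with the spread within groups (log2 fold change -0.44 ± 0.04, adjusted p = 4.54e-05). Atp5b, the beta subunit that carries the catalytic sites beside alpha, had 1807, 1799 and 1928 CPM in DCA cells against 2145, 2530.2 and 1977 CPM in untreated cells in experiment 1. In experiment 2, Atp5b had 1843, 1779 and 1919 CPM in DCA cells against 2165, 2272 and 2207 CPM in untreated cells. It also fell, with no overlap in either experiment (log2 fold change -0.26 ± 0.05, adjusted p = 0.00361), and the call was lost under cyclic loess (adjusted p = 0.269). Other F1 genes were lower for gamma (Atp5c1, -0.14) and delta (Atp5d, -0.16), both without a call under the mouse term, and did not pass for epsilon (Atp5e, -0.05, adjusted p = 0.612).

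The c ring, the rotor of ATP synthase, is made of 1 protein that is encoded by 3 genes. Atp5g1 had 794, 805 and 923 CPM in DCA cells against 1134, 1200.2 and 1022 CPM in untreated cells in experiment 1. In experiment 2, Atp5g1 had 286, 275 and 307 CPM in DCA cells against 393, 382 and 331 CPM in untreated cells (over both experiments, log2 fold change -0.38 ± 0.06, adjusted p = 9.16e-04), and its groups did not overlap in either experiment. Atp5g3 fell by 0.20 (adjusted p = 0.0139) and Atp5g2 did not pass (-0.12, adjusted p = 0.153). Per kilobase of gene length, Atp5g1 supplied 26.5% ± 1.09 of c-ring transcripts in DCA cells and 29.9% ± 0.962 in untreated cells of experiment 1 (SD, n = 3 each), and 18.7% ± 0.0310 in DCA cells and 20.3% ± 2.02 in untreated cells of experiment 2, where the ranges overlap. With the length of the main transcript the shares were 11.4% in DCA and 13.2% in untreated cells of experiment 1, and 7.77% in DCA and 8.54% in untreated cells of experiment 2. Small membrane subunits (Atp5j2, Atp5k, Atp5l, Atp5md and Atp5mpl) fell in 5 of 5 cases over both experiments, of which 2 kept the call with the mouse term and 0 were called under all 4 scalings. By experiment, 0 of the 5 were called in experiment 1 (median -0.11) and 5 in experiment 2 (median -0.35). Stalk genes fell in 1 of 4 cases. The stalk gene Atp5pb fell (-0.26), while Atp5h (0.03) and Atp5j (0.00) had adjusted p of 0.751 and 0.975.

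**Figure D3:**
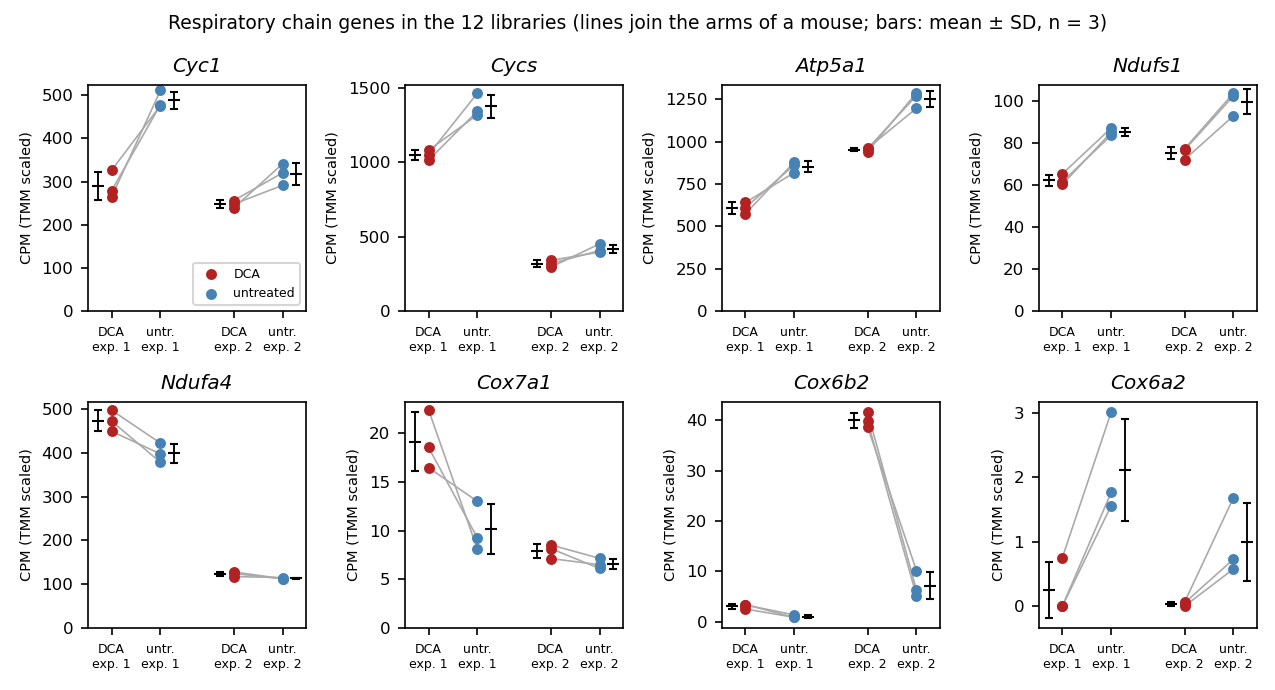
CPM after TMM scaling of 8 genes in each library, DCA left of untreated in each experiment; grey lines join the arms of a mouse, bars are mean ± SD of 3 mice. Cyc1, Cycs, Atp5a1 and Ndufs1 are lower and Cox6b2 is higher in the DCA library of every mouse; Cox6a2 is near 0 in 5 of 6 DCA libraries.

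In complex IV, 3 of 17 genes fell, 3 rose, and the median was -0.04, turning to 0.06 with library totals and 0.09 with cyclic loess. Experiment 1 alone had 3 rises and 0 falls, and experiment 2 had 1 rise and 1 fall. Over both experiments the mouse term dropped the calls of Cox6a1, Cox7a1 and Ndufa4. The 12 subunits found in all tissues had 2 falls and 1 rise over both experiments, not far from the shares of all tested genes. Cox4i1, the common form of the largest nuclear subunit, had 1206, 1173 and 1231 CPM in DCA cells against 1125, 1199 and 1166 CPM in untreated cells in experiment 1. In experiment 2, Cox4i1 had 671, 645 and 699 CPM in DCA cells against 601, 621 and 670.0 CPM in untreated cells. Arms overlapped, and the change did not pass under TMM (log2 fold change 0.07 ± 0.04, adjusted p = 0.294) but did as a rise with library totals (0.17, adjusted p = 0.00883) and cyclic loess (0.23, adjusted p = 0.00122). Cox5a fell (log2 fold change -0.22 ± 0.06, adjusted p = 0.0135), as did Cox6a1 (log2 fold change -0.13 ± 0.04, adjusted p = 0.0430). Both falls were lost with library totals and with cyclic loess, where the value of Cox6a1 turned to 0.03. Ndufa4 had 472, 497 and 449 CPM in DCA cells against 378, 422 and 397 CPM in untreated cells in experiment 1. In experiment 2, Ndufa4 had 125, 118 and 128 CPM in DCA cells against 113, 116 and 113 CPM in untreated cells. It was higher in 6 of 6 mice and under all 4 scalings (log2 fold change 0.18 ± 0.05, adjusted p = 0.0216), but not called with the mouse term (adjusted p = 0.0568).

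The tissue isoforms of complex IV moved most, at low levels. Cox6b2, known as the testis form of the subunit whose common form is Cox6b1, had 2.52, 3.41 and 3.31 CPM in DCA cells against 0.858, 0.835 and 1.34 CPM in untreated cells in experiment 1. In experiment 2, Cox6b2 had 41.6, 39.8 and 38.7 CPM in DCA cells against 6.29, 5.12 and 10.1 CPM in untreated cells. It was higher in DCA cells of every mouse and called in each experiment (log2 fold change 1.61 ± 0.28, adjusted p = 0.00175 in experiment 1; log2 fold change 2.47 ± 0.24, adjusted p = 8.06e-05 in experiment 2). Per kilobase of gene length, Cox6b2 made up 0.198% ± 0.0344 of the Cox6b1 and Cox6b2 sum in DCA cells and 0.0643% ± 0.0195 in untreated cells of experiment 1, and 5.27% ± 0.296 in DCA cells and 0.885% ± 0.285 in untreated cells of experiment 2 (SD, n = 3 each). With the length of the main transcript the shares were 0.327% in DCA and 0.106% in untreated cells of experiment 1, and 8.42% in DCA and 1.45% in untreated cells of experiment 2. The common gene Cox6b1 did not pass (-0.08, adjusted p = 0.243). Per length, Cox6b1 lay above Cox6b2 in every library.

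Cox7a1, the heart and muscle form of a subunit whose common form is Cox7a2, had 18.5, 22.4 and 16.4 CPM in DCA cells against 9.25, 8.11 and 13.0 CPM in untreated cells in experiment 1. In experiment 2, Cox7a1 had 7.14, 8.17 and 8.54 CPM in DCA cells against 6.51, 6.12 and 7.16 CPM in untreated cells. Groups did not overlap in experiment 1 (log2 fold change 0.92 ± 0.19, adjusted p = 0.00526) and overlapped in experiment 2 (log2 fold change 0.27 ± 0.19, adjusted p = 0.522). Over both experiments the rise was 0.60 ± 0.16 (adjusted p = 0.0177; 0.0502 with the mouse term). Cox6a2, the heart and muscle partner of Cox6a1, had 0, 21 and 0 raw counts in DCA libraries against 40, 101 and 50 in untreated libraries of experiment 1, and 2, 0 and 2 in DCA libraries against 55, 19 and 28 in untreated libraries of experiment 2. It was lower in 6 of 6 mice (log2 fold change -3.65 ± 0.81, adjusted p = 0.00678), and at these counts the fitted fold depends on the prior count. Cox6a2 passed the filter on low counts only through untreated libraries, where it was high. Cox4i2, the lung form of Cox4i1, had 0, 0 and 0 counts in DCA libraries and 0, 8 and 2 counts in untreated libraries of experiment 1, and 28, 28 and 40 in DCA libraries and 19, 16 and 47 in untreated libraries of experiment 2, with no call for DCA.

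**Figure D4:**
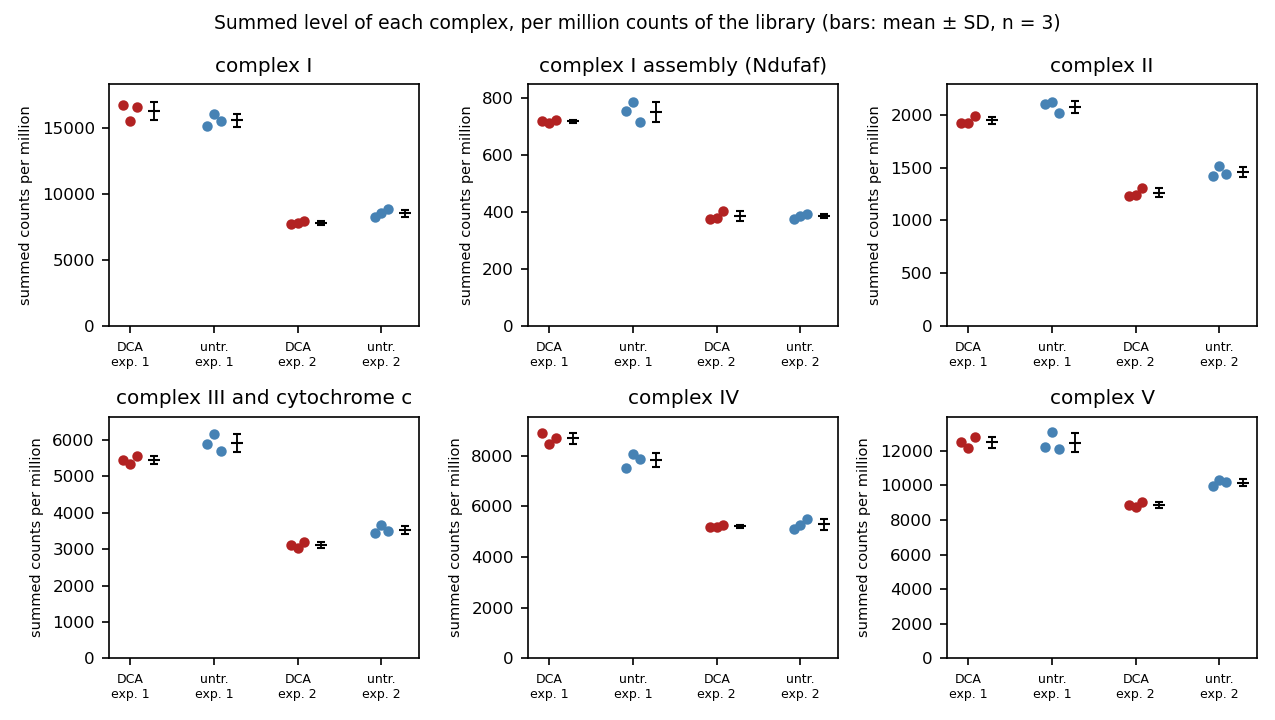
Summed CPM, scaled to the library total, for the genes of each complex in each library, DCA left of untreated, with mean ± SD of 3 libraries. Without TMM factors, complex III with cytochrome c is lower in DCA libraries of both experiments, complex IV is higher in DCA libraries of experiment 1 (8473 to 8885 in DCA and 7523 to 8068 in untreated libraries), and all complexes are lower in experiment 2 than in experiment 1.

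Taken by experiment, 25 of the 95 genes fell and 4 rose in experiment 1, against 11% and 5.67% of all tested genes, and 23 fell and 1 rose in experiment 2, against 2.20% and 2.37%. Called in the same direction in both were 14 genes, which are 48.3% of the 29 called in experiment 1 and 58.3% of the 24 called in experiment 2. They were Cox6b2, which rose, and 13 that fell, against 1.22% of all tested genes that rose and 1.35% that fell in both: Atp5a1, Atp5g1, Atp5pb, Cyc1, Cycs, Ndufa12, Ndufa8, Ndufa9, Ndufs1, Sdha, Sdhb, Uqcrc1 and Uqcrc2. In experiment 1, 15 rose and 9 fell with library totals, against 9.45% and 5.23% of all tested genes, and 18 rose and 9 fell with cyclic loess, against 6.81% and 6.55%. The median of the 95 genes there was 0.03 with library totals and 0.04 with cyclic loess; complex III had 4 falls and 1 rise with library totals and 4 and 2 with cyclic loess, and complex IV 0 falls and 7 rises, and 1 and 8. In experiment 2, 1 rose and 13 fell with library totals, against 3.14% and 1.34%, and 2 rose and 9 fell with cyclic loess, against 2.49% and 1.38%. With the mouse term 10 of the 24 calls in experiment 2 were kept and Cox6a2 was added; Cyc1, Uqcrc1, Sdhb, Atp5g1, Ndufa8 and Ndufa9 were among the 14 that lost theirs.

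Single libraries bore on these counts. Over both experiments 30 to 47 genes were called when each library was left out in turn, with 31 without the DCA library of mouse 1, 30 without that of mouse 2 and 31 without the untreated library of mouse 2, all of experiment 2. The count in experiment 1 was 14 without its DCA library of mouse 1, 19 without its untreated library of mouse 2, and 16, 16 and 18 without the DCA libraries of mice 1, 2 and 3 of experiment 2, which share the estimate of spread. It was 16 and 18 without the untreated libraries of mice 2 and 3 of experiment 2. In experiment 2 the count was 10 without the DCA library of mouse 1, 8 without that of mouse 2 and 8 without the untreated library of mouse 2. Direction was kept in each of these fits for all genes called with every library.

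The DCA effect itself was not shown to differ between experiments for any of the 95 genes. By edgeR 0 were called, against 0.331% of all tested genes. At an unadjusted p under 0.05 were 22 of the 95, against 2226 of all 15688 tested genes. DESeq2 called 3, a count given here without its share over all genes. Atp5j, Cox5b and Uqcrb were higher in DCA cells of all 3 mice of experiment 1 and lower in all 3 of experiment 2, and Cox7a2l did the reverse. Such genes were 4 of 95, a share near the 4.06% of all tested genes. Cox7a2l had 150.3, 141 and 154 CPM in DCA cells against 167, 177 and 172 CPM in untreated cells in experiment 1. In experiment 2, Cox7a2l had 77.1, 79.5 and 86.4 CPM in DCA cells against 66.4, 72.0 and 75.9 CPM in untreated cells. The difference of its effects, experiment 2 minus experiment 1, was 0.39 ± 0.11 (adjusted p = 0.117).

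Between experiments the set differed far more than between DCA and untreated cells. Of the 95 genes, 78 were lower and 9 higher in experiment 2 than in experiment 1 in DCA cells, against 24.1% and 28.1% of all tested genes, and 80 were lower and 9 higher in untreated cells, against 25.2% and 26.7%. The median log2 fold change, experiment 2 over experiment 1, was -1.15 in DCA cells and -1.13 in untreated cells, while the median of all genes was 0.11 in each. Library totals put the median of all genes at 0.45 in DCA and 0.53 in untreated cells and that of the 95 genes at -0.81 and -0.70, with 75 and 70 lower, against 15.6% and 15.2% of all tested genes. Cyclic loess put the median of all genes at -0.03 and -0.02 and that of the 95 genes at -0.68 and -0.57, with 68 and 63 lower, against 27.0% and 26.7%. Removal of a trend with GC content left 81 and 80 lower. The mitochondrial genome's own share of counts went the other way, at 2.11% to 2.85% in experiment 2 and 1.01% to 1.58% in experiment 1. Markers of NK cells (3 genes, of which Ncr1 and Klra8 were too low to test) summed to 0.0579 to 1.34 CPM in experiment 2 and 5.01 to 11.7 CPM in experiment 1, and those of stroma (3 genes, of which Col1a1 and Col1a2 were too low to test) to 45.8 to 54.7 CPM in experiment 2 and 11.9 to 20.7 CPM in experiment 1. Erythroid markers reached at most 1.79 CPM. In the NK and stroma lists only 1 gene each was high enough to test, Klrb1c and Pecam1. A single gene does not show that such cells were present, and their part in the difference was not tested.

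**Figure D5:**
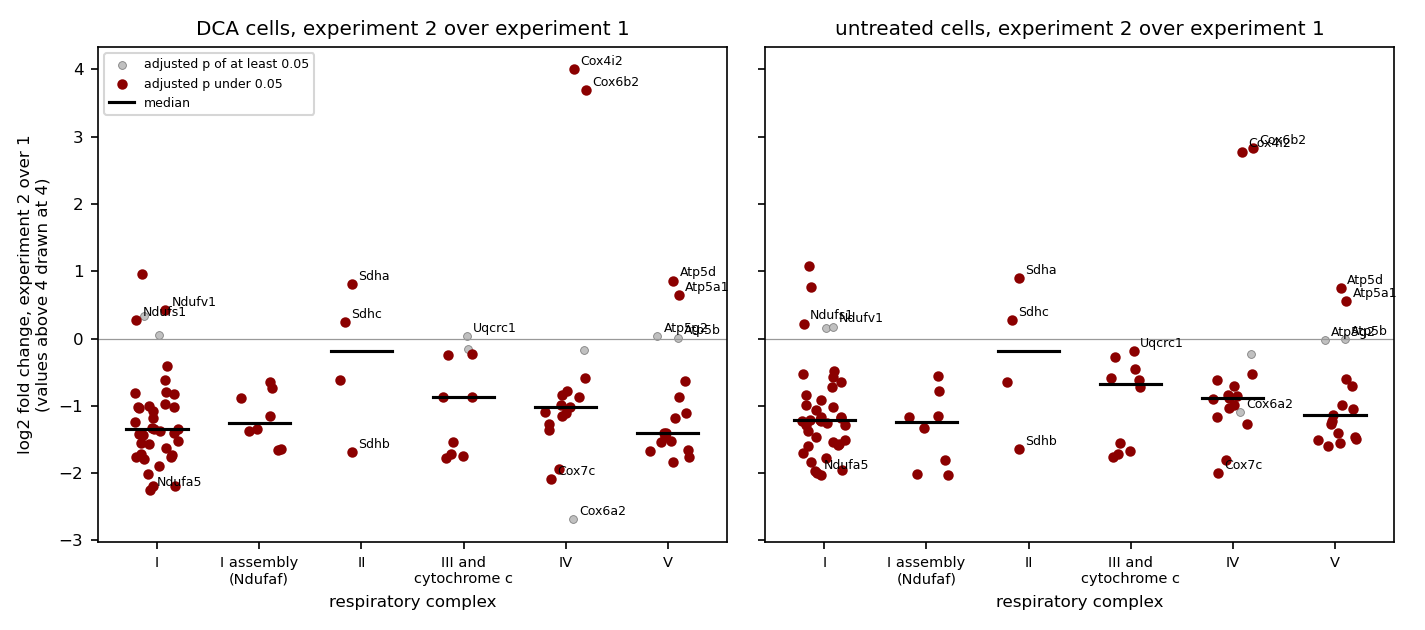
Log2 fold change of each gene, experiment 2 over experiment 1, in DCA cells (left) and untreated cells (right), by complex with class medians; dark points have an adjusted p under 0.05, and Cox4i2 in DCA cells is drawn at the upper end. The 30 accessory subunits of complex I lie below 0 in both panels, and Sdha, Sdhc, Ndufs1, Atp5a1 and Atp5d lie above it.

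The difference between experiments was uneven within each complex. The 30 accessory subunits of complex I were lower in 30 of 30 cases in both arms, and the 12 common complex IV subunits in 12 of 12. Under all 4 scalings 27 of the 30 were lower in DCA cells and 25 in untreated cells, and 9 and 8 of the 12, against 14.8% of all tested genes in DCA cells and 14.3% in untreated cells. Of 7 core subunits of complex I, 4 were lower and 3 higher in DCA cells, and 4 and 2 in untreated cells. Among the genes higher in experiment 2 in both arms, under each of the 4 scalings, were Sdha, Sdhc, Ndufs1, Atp5a1, Atp5d and Cox6b2. Cox4i2 was called too, but it passed the filter on low counts only through experiment 2, where it was high. Its call is therefore not counted as support. The share of all tested genes higher under each scaling was 23.0% in DCA cells and 21.6% in untreated cells. Ndufs1 had 72.2, 77.3 and 76.8 CPM in experiment 2 and 60.3, 65.4 and 61.6 CPM in experiment 1 in DCA cells, and 93.0, 104 and 103 CPM in experiment 2 and 85.2, 87.3 and 83.8 CPM in experiment 1 in untreated cells. Its log2 fold change was 0.27 ± 0.08 in DCA cells and 0.22 ± 0.08 in untreated cells (adjusted p = 0.00884 and 0.0251).

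In complex II the catalytic Sdha was higher in experiment 2 (0.82 in DCA and 0.90 in untreated cells) and its partner Sdhb lower (-1.68 and -1.64). Per kilobase of gene length, Sdhb was at 187 and Sdha at 42.6 CPM in DCA cells of experiment 2, and at 602 and 24.2 CPM in DCA cells of experiment 1. The deposited lengths count every exon of a gene; with the length of the main transcript Sdhb was at 367 and Sdha at 60.6 CPM per kilobase in DCA cells of experiment 2, and at 1179.5 and 34.4 in those of experiment 1. In the F1 head, Atp5a1 was higher in experiment 2 (0.65 and 0.55) and Atp5b did not pass (0.00 and -0.00, adjusted p = 0.985 and 0.986). Per kilobase, Atp5b had the highest level of complex V in both groups of experiment 2, 436 CPM in DCA and 523 CPM in untreated cells. The largest falls among called genes included Ndufa5 (-2.25 and -2.00) and Cox7c (-2.09 and -2.00), a small subunit of complex IV.

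Of 80 tested genes in 8 lists that act on the chain from outside it, 13 fell (16.2%) and 3 rose (3.75%) with DCA over both experiments, against 9.80% and 7.01% of all tested genes. The mouse term left 10 falls and 0 rises. Of 9 tested complex I assembly factors without an Ndufaf symbol, 3 fell and 0 rose: Ecsit (-0.55), Acad9 (-0.60) and Foxred1 (-0.34), with adjusted p of 0.00550, 0.0289 and 0.0388, and Acad9 lost the call with the mouse term (adjusted p = 0.0692). Of 4 complex II assembly factors, 2 rose, Sdhaf3 (0.45) and Sdhaf4 (0.26), and both lost the call with the mouse term (adjusted p = 0.0534 and 0.0621). Assembly factors of complex III gave 0 calls in 7 with edgeR (2 at an unadjusted p under 0.05; 1 call with DESeq2 and 0 with limma-voom). Those of complex IV gave 3 falls in 23 (Coa7, -0.44; Lrpprc, -0.28; Cmc2, -0.18), of which Lrpprc and Cmc2 lost the call with the mouse term (adjusted p = 0.0888 and 0.0979), and those of complex V 1 fall in 4 (Atpaf2, -0.37). Of 13 genes for ubiquinone synthesis, Coq6 (-0.43) and Coq7 (-0.41) fell. Of 8 enzymes that feed electrons to ubiquinone from other pathways, Dhodh of pyrimidine synthesis (-0.71) and Etfa of fatty acid oxidation (-0.18) fell and Sqor of sulfide oxidation rose (1.23, adjusted p = 0.0421; 0.0592 with the mouse term). Of 12 tested regulators of respiratory gene transcription, Nrf1 (-0.32, adjusted p = 0.0232) and Gabpa (-0.30, adjusted p = 0.0206) fell and 0 rose. Myc, a factor of cell growth and proliferation, had 223, 243 and 232 CPM in DCA cells against 379, 339.7 and 321 CPM in untreated cells in experiment 1. In experiment 2, Myc had 776, 973 and 964 CPM in DCA cells against 723, 768 and 712 CPM in untreated cells. Its log2 fold change was -0.58 in experiment 1 (adjusted p = 7.69e-04) and 0.30 in experiment 2 (adjusted p = 0.0649), and the difference, experiment 2 minus experiment 1, was 0.88 ± 0.12 (adjusted p = 0.0107; 0.0394 with the mouse term). Of 12 tested subunits encoded in the mitochondrial genome, 3 rose and 1 fell over both experiments, and 2 of the 4 kept the call with the mouse term. By experiment, 5 rose and 0 fell in experiment 1, and 1 rose and 2 fell in experiment 2.

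Promoters of genes that fell together are shown for Sdha, Ndufa8 and Atp5g3, beside that of Cox6b2, which rose. Each is the 250 bases before the annotated start, 5′ to 3′ on the gene's strand (all minus), from RefSeq on GRCm38.p6, at chr13:74350241-74350490, chr2:36049339-36049588, chr2:73911327-73911576 and chr7:4753095-4753344. Capitals mark matches to the letters searched.
Sdha: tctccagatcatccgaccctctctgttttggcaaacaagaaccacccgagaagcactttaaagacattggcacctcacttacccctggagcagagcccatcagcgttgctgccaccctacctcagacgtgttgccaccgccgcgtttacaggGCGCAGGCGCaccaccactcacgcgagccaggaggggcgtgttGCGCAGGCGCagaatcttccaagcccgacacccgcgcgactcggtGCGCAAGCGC
Ndufa8: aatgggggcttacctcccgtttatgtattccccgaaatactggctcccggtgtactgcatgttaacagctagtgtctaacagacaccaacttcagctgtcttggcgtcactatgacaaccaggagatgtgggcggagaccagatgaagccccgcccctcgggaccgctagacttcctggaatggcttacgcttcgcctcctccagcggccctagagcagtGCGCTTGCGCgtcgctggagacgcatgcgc
Atp5g3: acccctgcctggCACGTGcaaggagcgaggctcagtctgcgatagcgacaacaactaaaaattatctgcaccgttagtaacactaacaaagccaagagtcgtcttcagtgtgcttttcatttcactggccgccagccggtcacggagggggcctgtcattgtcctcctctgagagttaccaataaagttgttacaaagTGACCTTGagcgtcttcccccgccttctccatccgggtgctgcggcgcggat
Cox6b2: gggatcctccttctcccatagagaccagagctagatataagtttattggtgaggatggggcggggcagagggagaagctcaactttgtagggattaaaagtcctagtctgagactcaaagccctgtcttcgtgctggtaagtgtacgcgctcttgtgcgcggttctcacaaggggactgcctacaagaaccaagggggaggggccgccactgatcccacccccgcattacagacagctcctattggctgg

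The capitals in Sdha and Ndufa8 are matches to GCGC, then A, any base and GCGC, the letters used for the site of NRF1, or to its reverse complement. Those in Atp5g3 are CACGTG, the E-box bound by MYC and related factors, and the reverse complement of CAAGGTCA, the site of estrogen-related receptors. No match to these or to CCGGAAGT (GABPA and other ETS factors) or AAGATG followed directly by GCGGC (YY1) lies in the Cox6b2 window. In windows from 250 bases before to 50 bases after the start, on both strands, 25.0% of the 76 members with an entry held the NRF1 letters, against 7.17% of 17492 protein-coding genes. The shares were 6.58% and 1.06% for YY1, 5.26% and 1.56% for the estrogen-related receptor site, 6.58% and 5.69% for GABPA, and 7.89% and 8.91% for the E-box. Among members that fell with DCA, 27.8% of 36 held the NRF1 letters, and among the others 22.5% of 40. In the same order the shares were 13.9% (5 genes) and 2.5% (1 gene) for the E-box. They were 8.33% (3 genes) and 2.5% (1 gene) for the estrogen-related receptor site, and 5.56% and 7.5% for both YY1 and GABPA. These splits rest on few genes and were not tested. A match describes the letters in a window and shows no binding.

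The 6 pseudogene symbols that end in -ps (Atp5l2-ps, Atp5pb-ps, Cox5b-ps, Ndufa12-ps, Ndufab1-ps and Ndufs5-ps) summed to 20.7 to 23.5 CPM in DCA and 18.5 to 20.3 CPM in untreated cells of experiment 1, and to 25.9 to 27.2 CPM in DCA and 26.4 to 28.9 CPM in untreated cells of experiment 2. The comparison over both experiments called 0 of the 6 by edgeR, with 0 at an unadjusted p under 0.05, and DESeq2 and limma-voom called 0 as well. In the authors' deposited table, which is a separate fit, 20 of the 95 genes were lower and 2 higher at a false discovery rate under 0.05, against 5.42% lower and 5.12% higher of all genes in that table, with 7 of the falls in complex I, 2 in complex II, 5 in complex III with cytochrome c, 1 in complex IV and 5 in complex V.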

How the data were processed

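The authors deposited whole-number read counts per gene with no normalization, per the file headers and values, for 56748 genes and 12 libraries. The submitters' processing notes name GRCm39 as build and STAR 2.7.10a, fastp 0.23.2 and edgeR 3.36.0 as tools; not given in the sources used here are the strand setting, the counter and the annotation release. Per the labels' protocols, sorted cells were lysed directly, and SmartSeq cDNA was amplified for 15 cycles, so counts are not single molecules. The authors' deposited comparison table holds, per the file headers, log2 fold changes with p-values, false discovery rates and gene lengths. The length matched the summed exon length in GENCODE vM21 within 10% for 96.8% of 14571 genes. Of the 95 members, 43 overlap another gene in that annotation (GRCm38), 34 on the other strand. Overlap was judged from the start and end of whole genes, so such pairs need not share exons. Where exons do overlap, reads of a pair may not be told apart. No column was left unmapped. A core subunit and a marker gene of the lists are not reported here.

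The main test was edgeR 4.0.16 (R 4.3.3) on the counts: filterByExpr by the 4 groups, TMM factors, quasi-likelihood test, Benjamini-Hochberg adjustment over 15688 genes, threshold 0.05. Adjusted p-values are from this test unless another tool is named. DCA over both experiments was fitted with a term for experiment; effects per experiment, their difference and experiment 2 over experiment 1 in each arm came from 1 fit of 4 group means. Standard errors are the log2 fold change over the square root of F. CPM values of genes are TMM scaled; sums and marker lists use library totals. The procedure was tested on simulated data. Alternatives were RLE factors, DESeq2 1.42.0, limma 3.58.1 (voom and trend), cyclic loess, other filters, a mouse term, no experiment term, each experiment alone and each library left out. Library totals without TMM, and removal of length or GC trends, were added after seeing the data.

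Same-numbered libraries pair by design, since both arms came from 1 mouse. Correlations of their deviations from group means were 0.0443 to 0.0834, against -0.0689 to -0.00438 between mice. Members and lists were chosen with earlier results of these data known. Named were fixed core subunits, isoform pairs, up to 3 called members per class and direction by adjusted p, calls against a class's majority and the extremes of level per length; Atp5d, Atp5e, Atp5h, the copies, genes of opposite sign between experiments and list genes outside this rule were named after their values were seen. Promoter windows came from RefSeq on GRCm38.p6, for 76 of the 95 members.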

Additional observations from a re-analysis of the deposited data

Results flagged for a closer look

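Among the regulators of respiratory gene transcription, the DCA effect on Myc differed between experiments by the test of the difference itself. The difference, experiment 2 minus experiment 1, was 0.877 on the log2 scale (edgeR, adjusted p = 0.0107). With each of the 12 libraries left out in turn the call was kept in 7 fits. It was lost in 5 (adjusted p = 0.0616 to 0.126), those without the DCA libraries of mice 2 and 3 and those without each of the 3 untreated libraries of experiment 2; the difference ranged from 0.725 to 0.933 over the 12 fits.

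By library totals, the summed level of the 5 CD8 T cell markers moved in opposite directions in the 2 experiments. DCA minus untreated cells averaged 647 CPM in experiment 1, higher in 3 of 3 mice, and -789 CPM in experiment 2, lower in 3 of 3 mice. TMM factors were higher in DCA than in untreated libraries of both experiments. TMM scaling would thus bring the arms closer in experiment 1 and move them further apart in experiment 2. With it, edgeR called 0 of the 5 genes in experiment 1 and 4 in experiment 2. The difference between experiments in the summed level was not tested. For the 5 genes, edgeR gave the difference adjusted p of 0.0839 to 0.482.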

How the results depend on the processing

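Counts of the 95 genes called for DCA depended on scaling. Over both experiments (47 called) they were 25 with library totals and 22 with cyclic loess, 0 without a term for experiment (by construction its difference then counts as spread), and 30 to 47 with each library left out. In experiment 1 (29) the count was 15 with that experiment alone, and 14 to 30 with each library left out. In experiment 2 (24) it was 14 with library totals, 11 with cyclic loess, 11 with the replicate block by mouse (10 of the 24, and Cox6a2), 48 with DESeq2, 44 with the length trend and 46 with the GC trend removed, and 8 to 32 with each library left out. The difference of the DCA effects (0) gave 3 calls with DESeq2, 1 with no filter, and 0 to 0 with each library left out. Experiment 2 over experiment 1 gave 84 to 88 calls in DCA cells and 85 to 89 in untreated cells with each library left out. The cause of these shifts was not tested. The replicate block gave 34 calls over both experiments, all among the 47, and 22 in experiment 1, of which 21 were among the 29 and 1 was Cox6a2; the genes it dropped over both were Atp5c1, Atp5d, Atp5j2, Atp5k, Atp5md, Cox6a1, Cox7a1, Ndufa4, Ndufb4, Ndufs8, Ndufv2, Sdhc and Uqcr11, and it changed no other call over both. No paired analysis was possible between experiments because their groups share no mouse. Of the 47 genes called over both, 29 kept the call in all 12 fits with a library left out, and 83 of 89 did so between experiments in untreated cells.

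Signs turned, over both experiments, under cyclic loess for Atp5c1 (0.0143), Cox6a1 (0.0322), Cox6b1 (0.0731), Cox7a2 (0.0648) and Cox8a (0.0758), and with library totals for Cox6b1 (0.0156), Cox7a2 (0.00997) and Cox8a (0.0194). Experiment 2 over experiment 1 turned in DCA cells for Ndufv1 (-0.19, GC trend removed), Sdhc (-0.0100, length trend removed) and Sdhd (0.00942, cyclic loess), and in untreated cells for Sdhd (0.0931, cyclic loess). Genes under about 3 counts per library, such as Cox4i2 and Cox6a2 in some groups, have no firm fold.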
